A study of Mus musculus with 5 samples.

Results

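The members are 5164 MspI restriction fragments of the mouse genome whose methylation in a CD8+ T-cell population was intermediate and whose single molecules mostly carried methylated and unmethylated CpGs side by side. A molecule with both kinds of call is called mixed here, and a molecule with only 1 kind is called uniform. Fragments had 4 to 19 CpGs, and only molecules with 4 or more calls were used. Each member had at least 10 such molecules in each clone and at least 5 on the odd and on the even lines of the population file. The members were chosen by 2 measured values on the odd lines: a level, the share of methylated calls, of 20 to 80%, and over 60% mixed molecules. All population values below come from the even lines, which the choice did not use. The members are 5164 of 7152 intermediate fragments, of 63936 fragments deep enough to be tested and of 236064 fragments with at least 1 usable molecule. The other intermediate fragments were 1892 with over 20 to 60% mixed molecules and 96 with at most 20%.

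The 3 groups are all CD8+ T cells of the C57BL/6 strain: a primary non-clonal population, clone 1 and clone 2. Naive T cells from spleen were cultured with IL2 and sorted as single CD8+ cells, and each clone grew from 1 founder cell, with 15 cell divisions given in the labels. The labels used here name no genotype beyond the strain, no age and no number of mice. The design asks how methylation in a clone differs from that of the population it came from. Each clone has 2 replicates in the labels, which share 1 deposited file, and the population has 1. Every test below therefore sets single libraries side by side, without any replicate spread, and does not compare conditions. The population library listed 8463942 molecules, clone 1 listed 11969176 and clone 2 listed 8977287. The median member had 10 molecules on the even population lines, 26 in clone 1 and 21 in clone 2, so comparisons with the population rest on fewer molecules than those between the clones. Fragments carry a number and no coordinates or gene names here, so no genome position, gene, sequence or marker gene of CD8+ T cells could be given for any of them.

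In mammals a CpG is methylated on both strands, and after replication the maintenance enzyme DNMT1, guided by UHRF1, copies the mark from the old strand to the new one. A cell's methylation pattern can thus be passed to its daughters, with losses when copying fails and gains when the de novo enzymes DNMT3A and DNMT3B act. An intermediate level can come from molecules that are fully methylated or fully unmethylated, as at imprinted loci or in mixtures of cell types, or from molecules that each carry both states, which is often called disordered methylation.

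The label held on the lines that did not choose the members. The median member had 75% mixed molecules in the population, against 78.9% in clone 1 and 78.9% in clone 2, against medians of 21.4%, 18.5% and 17.9% over all 63936 tested fragments. On the odd lines, which chose the members, the median was 80%. Over 60% of molecules were mixed on the even lines at 71.6% of members, in clone 1 at 70.5% and in clone 2 at 70.5%, and 2848 members (55.2%) were above that limit in both clones. Over all tested fragments these shares were 11.9%, 15.7%, 15.7% and 8.81%. Every molecule was mixed at 632 members in the population, against 697 in clone 1 and 843 in clone 2. Over all tested fragments this held at 1.25%, 1.73% and 2.19%. Such a count depends on depth, because it is easier to reach with the population's fewer molecules. At the other end, at most 20% of molecules were mixed at 77, 209 and 254 members, and at 49.8%, 53.3% and 54.9% of all tested fragments. Just inside the limit, members lay at 60.9% mixed on the odd lines, and the nearest fragments outside it at 60%.

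**Figure D1:**
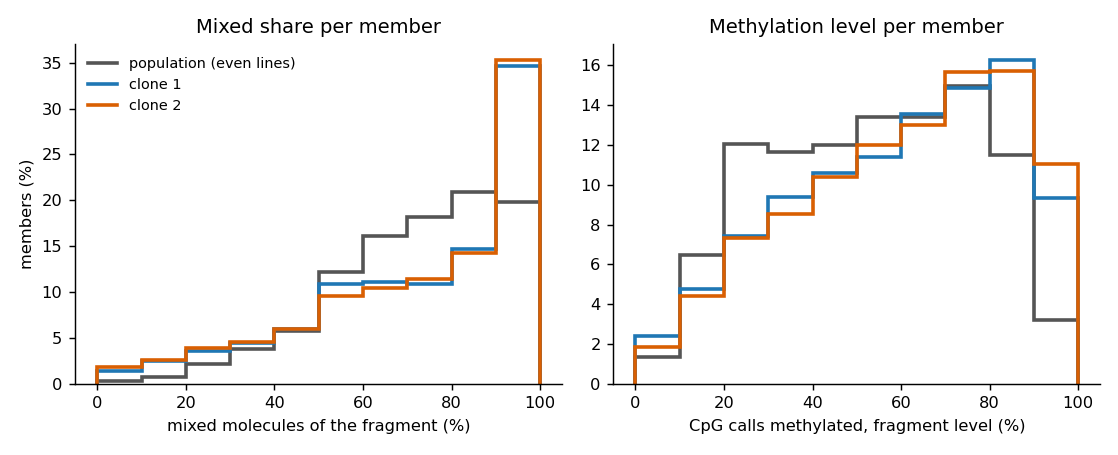
Percent of the 5164 members (y axis) by the share of mixed molecules (left, 10-point classes) and by the methylation level (right, 10-point classes) in the population's even lines, clone 1 and clone 2. Members with nearly all molecules mixed and members with levels over 90% were more frequent in both clones than in the population.

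Members had a higher mean level in both clones. The mean was 53.5% in the population, against 59.6% in clone 1 and 60.8% in clone 2, a difference of 6.12 and 7.38 percentage points. Over all tested fragments the same differences were 1.28 and 1.77 points. Intermediate fragments with over 20 to 60% mixed molecules had differences of 6.50 and 6.87 points, so the rise was similar in that group. Clone 1 was above the population at 3355 members and below it at 1795, and clone 2 at 3482 and 1668. Levels stayed within 20 to 80% at 78.1% of members on the even population lines, at 67.4% in clone 1 and at 67.3% in clone 2. Levels over 90% were found at 2.94%, 9.22% and 10.9% of members. As a description across fragments of the same libraries, Pearson's r of the levels was 0.732 for clone 1 with the population, 0.729 for clone 2 with the population and 0.684 between the clones (n = 5164), and 0.977 to 0.979 over all 63936 tested fragments. At intermediate fragments with over 20 to 60% mixed molecules it was 0.711, 0.705 and 0.678 in the same order (n = 1892).

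Single members were tested on their number of mostly methylated molecules, those with more than 50% of calls methylated, by Fisher's exact test (two-sided) with Benjamini-Hochberg adjustment over all 63936 fragments. A member counted as called when its adjusted p was below 0.05 and the libraries were 20 or more points apart. Against the population, clone 1 had 156 called members, 3.02% against 0.43% of all tested fragments. Of these, 116 were higher (2.25%, background 0.33%) and 40 were lower (0.775%, background 0.1%). Clone 2 had 109 called members, 2.11% against 0.307%, with 88 higher (1.7%, background 0.246%) and 21 lower (0.407%, background 0.061%). The clones differed from each other at 808 members, 15.6% against 2.46%, of which 346 were higher in clone 1 (6.7%, background 1.14%) and 462 lower (8.95%, background 1.32%). Both comparisons with the population share its library. Intermediate fragments with over 20 to 60% mixed molecules were called at similar shares, 3.33%, 2.27% and 15.5% in the same order, so the share of level calls was above the background in that group too. At 582 of the 808 members called between the clones (72.0%), the population lay between them. It was at or above the higher clone at 63 and at or below the lower clone at 163. These members were called because the clones lay far apart, which itself favours a population value between them, so the share is a description only.

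The fragments with the widest differences between the clones show what such a call looks like on molecules, and were named for that width, so they are not typical members. At fragment 631734, with 5 CpGs, more than 50% of calls were methylated on 11 of 14 population molecules (78.6%, Wilson 95% interval 52.4 to 92.4). The counts were 37 of 37 for clone 1 (90.6 to 100) and 0 of 33 for clone 2 (0 to 10.4). The clones thus did not overlap in whether a molecule was mostly methylated (Fisher's exact test, adjusted p = 6.38e-16). In clone 2 the molecules were still mixed in 23 of 33 cases: CpG 1 was methylated on 13 of 13 molecules, CpGs 2 and 4 on 0 of 33 each, and CpG 3 on 15 of 33. Clone 1 had 8 mixed molecules of 37. A pattern is written below as 1 letter per CpG in fragment order, M for methylated and U for unmethylated. Over CpGs 2 to 5, clone 1 had MMMM on 18 of 22 molecules, and clone 2 had UUUU on 10 of 20, UMUM on 8 and UMUU on 2.

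Fragment 390961, with 6 CpGs, had 29 of 29 mostly methylated molecules in clone 1 and 0 of 21 in clone 2, with 5 of 13 in the population (Fisher's exact test between the clones, adjusted p = 2.63e-11). Both clones held few patterns there: over CpGs 2 to 5 clone 1 had UMMM on 12 and MMMM on 12 of 26 molecules, and clone 2 had UUMU on 11 and UUUU on 7 of 18. The population had 8 patterns on 12 molecules. Fragment 540526, with 7 CpGs, had 32 of 32 and 0 of 32 mostly methylated molecules in clones 1 and 2 and 5 of 11 in the population. Over CpGs 3 to 6 its clone 1 molecules were MMUM on 13 and UMMM on 12 of 28, so the molecules of 1 clone carried opposite states at CpGs 3 and 5. At these fragments the population held several patterns, and each clone held few.

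The reverse direction was found at fragment 623690, with 12 CpGs, where 0 of 24 clone 1 molecules and 21 of 21 clone 2 molecules were mostly methylated, and 9 of 14 in the population (Fisher's exact test between the clones, adjusted p = 3.42e-10). Mixed molecules were frequent in all 3 libraries there: 10 of 14 in the population, against 20 of 24 in clone 1 and 17 of 21 in clone 2. CpG 2 was methylated on 15 of 16 clone 1 molecules while CpG 9 was methylated on 0 of 20. At fragment 97913, with 5 CpGs, clone 1 had 0 of 23 and clone 2 had 26 of 26 mostly methylated molecules (Fisher's exact test, adjusted p = 2.88e-11). Mixed molecules were 8 of 11 in the population there, 22 of 23 in clone 1 and 3 of 26 in clone 2, so the clones differed in both measures.

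**Figure D2:**
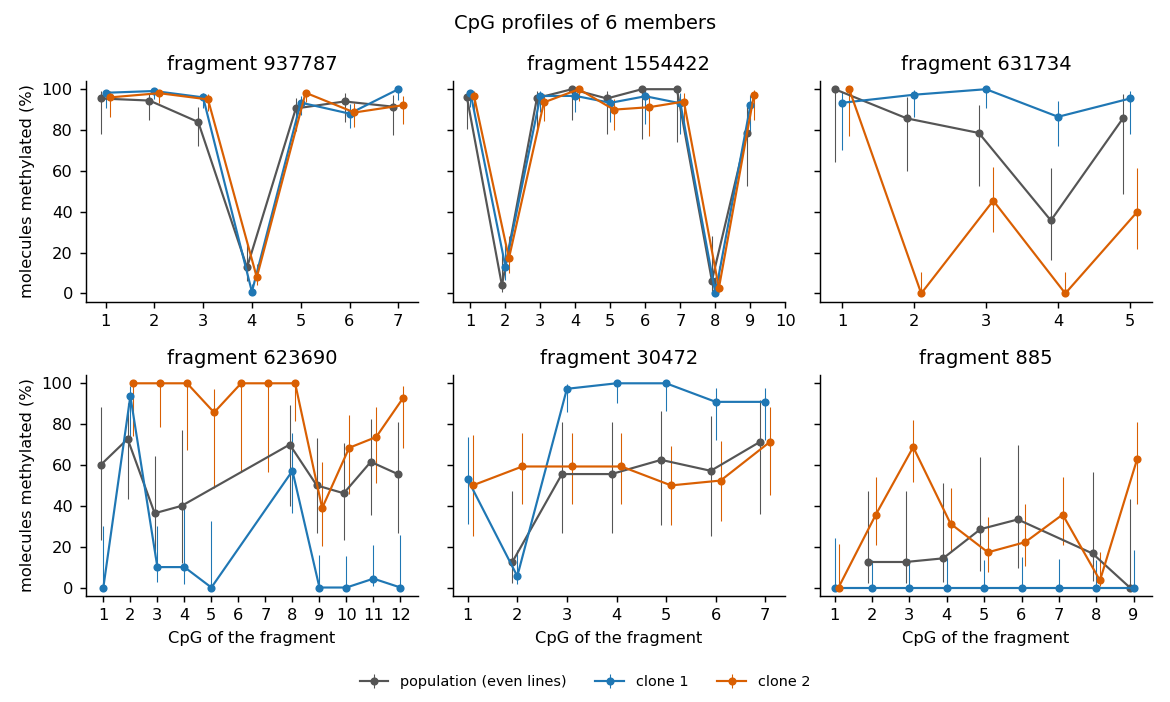
Percent of molecules methylated (y axis) at each CpG, numbered along the fragment (x axis), for 6 members in the population's even lines, clone 1 and clone 2; bars are Wilson 95% intervals and CpGs with under 5 calls are left out. Fragments 937787 and 1554422 had their lowest CpGs at the same positions in all 3 libraries, and the other 4 differed between the clones.

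Against the population, fragment 1042586 was among the widest called rises in clone 1, with 7 CpGs. The population had 0 of 11 mostly methylated molecules (Wilson 95% interval 0 to 25.9). Clone 1 had 20 of 20 (83.9 to 100), with an adjusted p of 5.81e-05 by Fisher's exact test, and clone 2 had 9 of 23 (22.2 to 59.2). Over CpGs 2 to 5 clone 1 had MMMM on 12 and MUMM on 6 of 18 molecules, and clone 2 had UUUM on 6, MMMM on 6 and UUUU on 4 of 18. The widest fall in clone 1 was at fragment 709769, from 9 of 9 mostly methylated molecules to 0 of 23, with 11 of 13 in clone 2 (Fisher's exact test for clone 1, adjusted p = 0.00012). Clone 1 kept CpG 1 methylated there on 10 of 10 molecules, and CpGs 2 and 3 were unmethylated on all 22 and 23.

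In clone 2 fragment 1395480 was among the widest called rises, with 15 CpGs, from 0 of 8 mostly methylated molecules to 19 of 19 (Fisher's exact test, adjusted p = 0.00131). Clone 1 was also called there, at 25 of 26 (Fisher's exact test, adjusted p = 0.000773), so both clones lay above the population. Fragments 139822 and 139823, which have consecutive numbers, had like values: 0 of 14 and 0 of 5 molecules were mostly methylated in the population, 38 of 39 and 17 of 17 in clone 1, and 28 of 29 and 10 of 10 in clone 2. At fragment 139823 the call for clone 2 did not pass (Fisher's exact test, adjusted p = 0.0774). The widest fall in clone 2 was at fragment 619891, with 6 CpGs, from 15 of 16 to 1 of 28, with 24 of 25 in clone 1 (Fisher's exact test for clone 2, adjusted p = 1.72e-05). All 28 clone 2 molecules were mixed at that fragment: CpGs 2 and 3 were methylated on 0 of 28 each, CpG 1 on 9 of 9 and CpG 5 on 20 of 20. Its 20 molecules with calls at CpGs 2 to 5 carried 2 patterns, UUUM on 12 and UUMM on 8.

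The share of mixed molecules differed from the population at few members. The same Fisher's exact test on mixed against uniform molecules called 112 members in clone 1, 2.17% against 1.29% of all tested fragments, with 63 higher (1.22%, background 0.956%) and 49 lower (0.949%, background 0.335%). In clone 2 it called 93, 1.8% against 1.1%, with 37 higher (0.716%, background 0.821%) and 56 lower (1.08%, background 0.277%). Higher calls were thus close to the background in both clones, and lower calls were above it. Members were chosen for a high mixed share, with a population median of 75% against 21.4% over all tested fragments. They had more room to fall and less to rise than the background, so this asymmetry is a description only. Between the clones 955 members were called, 18.5% against 10.6%, with 483 higher in clone 1 (9.35%, background 5.38%) and 472 lower (9.14%, background 5.26%). Intermediate fragments with over 20 to 60% mixed molecules were called more often than the members, at 4.18%, 2.91% and 22.3%. Of the 955 members, 321 had every molecule mixed in 1 clone, and 222 had at most 20% mixed in 1 clone. Calls for level and for mixed share coincided at 246 members, 30.4% of the level calls and 25.8% of the mixed calls.

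At fragment 30472, with 7 CpGs, 36 of 38 molecules were mixed in clone 1 and 0 of 27 in clone 2, with 7 of 9 in the population (Fisher's exact test between the clones, adjusted p = 7.14e-13). Mostly methylated molecules were 32 of 38 and 16 of 27, which was not called (Fisher's exact test, adjusted p = 0.829). Over CpGs 2 to 5 clone 1 had UMMM on 20 of 22 molecules, while clone 2 had UUUU on 11 and MMMM on 11 of 22. The population's 7 molecules there were UUUU on 3, UMMM on 2, UUMM on 1 and MMMM on 1. Clone 1 thus had mostly 1 mixed pattern and clone 2 had the 2 uniform ones, and the population had molecules of each of these kinds.

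Fragment 885, with 9 CpGs, went the other way: 0 of 30 clone 1 molecules were mixed, all of them unmethylated at every call, and 34 of 35 in clone 2 were mixed, with 3 of 8 in the population (Fisher's exact test between the clones, adjusted p = 3.87e-14). At fragment 1110402, with 6 CpGs, 1 of 31 clone 1 molecules and 23 of 23 clone 2 molecules were mixed, and 14 of 18 in the population. Clone 1 had UUUU on 27 of 27 molecules over CpGs 2 to 5, whereas clone 2 had UUUM on 7, MUUM on 6 and MUMM on 6 of 21. Of these, MUUM was the commonest in the population, on 6 of 18. At fragment 696142, with 5 CpGs, clone 1 was methylated throughout on 22 of 24 molecules, and in clone 2 CpG 3 was methylated on 27 of 27 and CpG 4 on 0 of 27, so that all 27 molecules were mixed.

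Some members were mixed in the population and uniform in a clone. At fragment 1021441, with 5 CpGs, mixed molecules were 8 of 9 in the population, 35 of 40 in clone 1 and 0 of 23 in clone 2, which was methylated at every call (Fisher's exact test for clone 2 against the population, adjusted p = 0.00133). At fragment 853865, with 7 CpGs, they were 9 of 9, 13 of 14 and 1 of 12 (Fisher's exact test for clone 2 against the population, adjusted p = 0.00946). At fragment 1505790, with 6 CpGs, they were 9 of 9 in the population, 4 of 34 in clone 1, which was nearly unmethylated at a level of 3.12%, and 23 of 23 in clone 2. Fragment 692896 was nearly uniform in both clones: the population had 15 of 20 mixed molecules (75%, Wilson 95% interval 53.1 to 88.8), whereas clone 1 had 2 of 34 (1.63 to 19.1) and clone 2 had 2 of 29 (1.91 to 22.0). Both clones were called against the population (Fisher's exact test, adjusted p = 0.000459 and 0.0014). There CpG 2 was methylated on 5 of 20 population molecules, on 32 of 34 in clone 1 and on 28 of 29 in clone 2.

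Single CpGs were also tested. A Fisher's exact test at each CpG, added after the data were seen and adjusted over 415768 CpGs, called 915 of the members' 28114 tested CpGs in clone 1 against the population (3.25%, background 0.526%) and 765 in clone 2 (2.72%, background 0.461%). Between the clones 6333 CpGs were called, 22.5% against 5.45% of all CpGs tested. They lay on 3009 members, 58.3% of all members, where 21.0% of all 63936 tested fragments held a called CpG. At 2244 of these members (43.5%, against 18.7% of all tested fragments) the fragment level was not called. CpGs called in opposite directions on 1 fragment were found at 629 members (12.2%, against 3.08%).

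Fewer of the members' CpGs had a middle state in the clones than in the population, where the members were chosen as intermediate. At 12123 CpGs on 2713 members with 10 or more calls in every library, each CpG was reduced to 10 calls by the exact probabilities of drawing them without replacement. In the population 14.0% of these CpGs had 0 or 1 methylated call of 10, 29.4% had 4 to 6 and 18.1% had 9 or 10. In clone 1 the shares were 20.4%, 20.9% and 36.4%, and in clone 2 they were 19.3%, 20.2% and 37.9%. The classes between the middle and the extremes also held fewer CpGs in the clones: 2 or 3 methylated calls were found at 19.3%, 9.47% and 9.86%, and 7 or 8 at 19.2%, 12.9% and 12.8%. Over the 184544 such CpGs of all tested fragments, the class of 4 to 6 did not fall: it held 4.10% in the population, against 4.64% and 4.49% in the clones. The class of 0 or 1 held 47.7%, 48.0% and 47.6% there, and that of 9 or 10 held 37.2%, 40.2% and 40.9%. Calls of 1 fragment share molecules, so these CpGs are not independent.

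**Figure D3:**
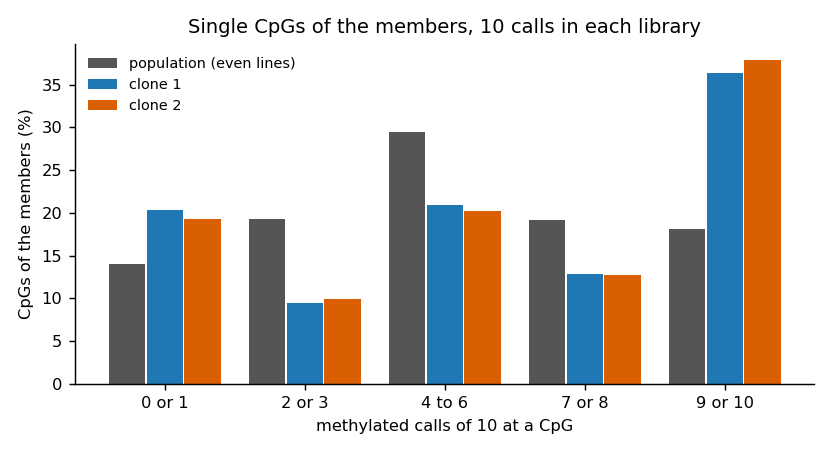
Percent of 12123 CpGs of the members (y axis) by the number of methylated calls of 10 (x axis) in the population's even lines, clone 1 and clone 2. The 9 or 10 class held 18.1% of CpGs in the population and 36.4% and 37.9% in the clones.

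While the share of mixed molecules was nearly the same in the 3 libraries, the variance of the calls was distributed differently. The variance was divided, from pairs of different molecules, into a part between the CpGs of a fragment and a part within a CpG, over 5100 members. The part between CpGs was 14.8% in the population, against 34.6% in clone 1 and 34.7% in clone 2. A pair of molecules differed at the same CpG in 34.4% of cases in the population, against 23.6% in clone 1 and 23.4% in clone 2. Neighbouring CpGs on 1 molecule carried the same state in 68.7%, 68.1% and 68.1% of cases. Neighbouring CpGs taken from different molecules did so in 60.2%, 63.5% and 63.9%. The covariance of 2 CpGs on 1 molecule, beyond their levels, was 0.0354 in the population, against 0.0193 and 0.0176 in the clones, so it was lower in both clones. The same part between CpGs was 6.65%, 23.8% and 24.4% in intermediate fragments with over 20 to 60% mixed molecules and 7.62%, 22.7% and 23.1% over all tested fragments. Members thus had the largest share between CpGs of these groups in each library. This share and the mixed share that chose the members are related quantities, so the comparison is a description.

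Mixed molecules carried the same pattern more often within a clone than within the population. For 4170 members with at least 5 molecules in every library over the same 4 neighbouring CpGs, the best covered such window was used. Mixed molecules were 60.05% of the window's molecules in the population, against 60.9% in clone 1 and 61.0% in clone 2, so over a fixed number of CpGs the shares were also close. Among 3506 windows with at least 2 mixed molecules in each library, a pair of mixed molecules carried the same pattern in 20.2% of cases in the population, against 43.7% in clone 1 and 43.3% in clone 2. Pairs with 1 molecule from each clone matched in 20.8%, and pairs of clone and population molecules in 19.7% and 19.8%. The excess was thus within each clone, and patterns matched between the clones about as often as within the population. The clones also had the higher values outside the members: at 1035 windows of intermediate fragments with over 20 to 60% mixed molecules the shares were 17.2%, 42.3% and 43.3%, and at 14809 windows of all tested fragments they were 24.7%, 40.4% and 41.5%. For pairs of the members' molecules on opposite strand marks, at 2049 windows, the values were 18.6%, 43.5% and 43.0%, so molecules of a clone matched as often across the strand marks.

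**Figure D4:**
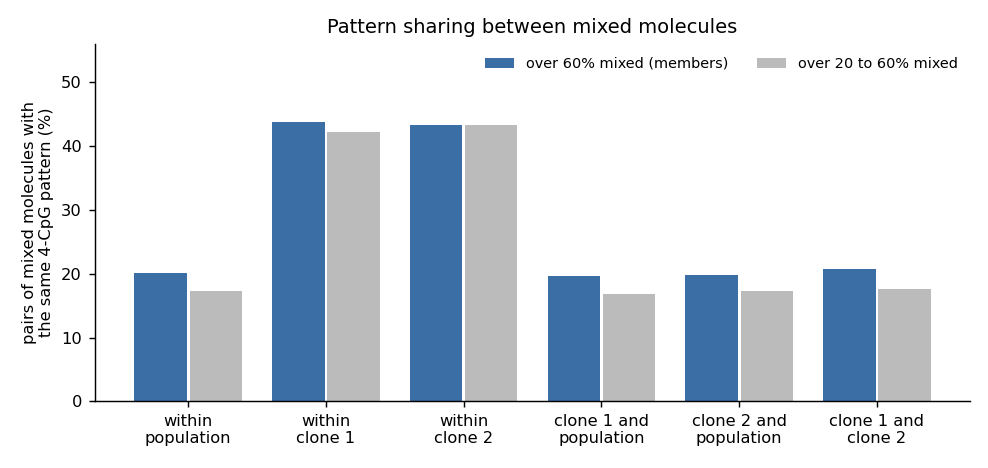
Percent of pairs of mixed molecules with the same pattern over 4 CpGs (y axis), within each library and between libraries (x axis), for the members and for intermediate fragments with over 20 to 60% mixed molecules. Pairs within a clone matched in 43.7% and 43.3% of cases at the members, and all other kinds of pair in 19.7 to 20.8%.

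Clones held fewer patterns per window. At the 1247 windows that had 10 or more molecules in each of the 3 libraries, 10 molecules carried 5.17 different patterns on average in the population, against 3.37 in clone 1 and 3.40 in clone 2. Among the first 10 molecules listed, 3 or more patterns were needed to cover 8 of them at 74.3% of windows in the population, against 25.4% in clone 1 and 29.3% in clone 2. A single uniform pattern held 8 or more at 4.57% of windows in the population, against 14.0% in clone 1 and 15.9% in clone 2. A single mixed pattern did so at 0.401% of windows in the population, against 6.50% in clone 1 and 5.77% in clone 2. A pair of mixed patterns did so at 2.41%, 16.3% and 16.4%, and 1 mixed with 1 uniform pattern at 16.8%, 35.1% and 30.7%. The combination of MMMM with UUUU, the pattern of fragment 30472 in clone 2, was found at 1.60%, 2.65% and 2.00% of the members' windows. At intermediate fragments with over 20 to 60% mixed molecules (453 windows) that combination was found at 11.7%, 13.5% and 10.2%. These groups were chosen by their mixed share in the population, so a difference in uniform patterns is built into the choice. The lower number of patterns in the clones was not limited to the members. In the group with over 20 to 60% mixed molecules, 10 molecules carried 4.71, 3.26 and 3.25 patterns on average. In that group 3 or more patterns were needed at 60.04%, 18.98% and 23.4% of windows, so the fall was similar. Over all tested fragments (19021 windows) 10 molecules carried 2.39, 2.05 and 2.03 patterns.

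**Figure D5:**
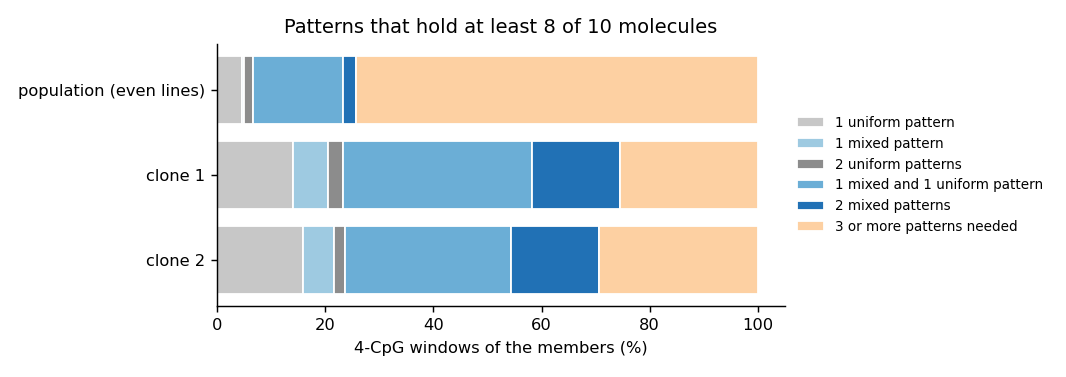
Percent of 1247 windows of 4 CpGs at the members (x axis) by the patterns that hold at least 8 of the first 10 molecules, for the population's even lines, clone 1 and clone 2. The class that needed 3 or more patterns held 74.3% of windows in the population and 25.4% and 29.3% in the clones.

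The commonest pattern was usually not the same in the clones. Of 3559 windows with 1 commonest pattern in each clone, 1355 (38.1%) had the same one in both, and in 411 (11.5%) it was a mixed pattern. At intermediate fragments with over 20 to 60% mixed molecules the same one was found at 558 of 1322 windows (42.2%), a similar share. With at most 20% mixed molecules it was 32 of 63 (50.8%). No such share was computed over all tested fragments. Uniform patterns of the members' windows also shifted between libraries: UUUU made up 18.5% of the molecules in the population, against 13.1% in clone 1 and 12.2% in clone 2, and MMMM made up 21.5%, 25.9% and 26.9%.

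A few of the named members had the same commonest mixed pattern in every library, and some of them were among the deepest. Fragment 937787, with 7 CpGs, had 58 molecules in the population, against 130 in clone 1 and 125 in clone 2, the highest depth in the least covered library of all members. Mixed molecules were 50 of 58 (86.2%, Wilson 95% interval 75.1 to 92.8), 127 of 130 (97.7%, 93.4 to 99.2) and 110 of 125 (88%, 81.1 to 92.6). CpG 4 was methylated on 7 of 55, 1 of 124 and 9 of 114 molecules, and each of the other 6 CpGs on over 80% in every library. Over CpGs 3 to 6 the pattern MUMM was found on 30 of 45, 88 of 108 and 80 of 99 molecules. Fragment 1554422, with 10 CpGs, had MUMM over CpGs 1 to 4 on 19 of 22, 46 of 59 and 46 of 61 molecules, with CpGs 2 and 8 low in all 3 libraries. All its molecules but 1 bore the plus strand mark. Fragment 248248 had MUMM over CpGs 7 to 10 on 7 of 15, 26 of 40 and 29 of 42 molecules. No comparison of level or mixed share was called at these 3 fragments; at fragment 937787 the mixed shares of the clones had an adjusted p of 0.0305 by Fisher's exact test but were only 9.69 points apart. Their depth was well above the members' medians of 10, 26 and 21 molecules. Reads of near-identical copies in the genome cannot be told apart here, and their part in these values was not tested.

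At fragments 94598 and 414668, also deep, the uniform MMMM was the commonest pattern over CpGs 2 to 5 in all 3 libraries. The second commonest was a mixed pattern, the same in each library. Fragment 94598, with 8 CpGs and 35, 87 and 97 molecules, held a broad set: over CpGs 2 to 5 MMMM was found on 6 of 23, 31 of 69 and 30 of 73 molecules and MUMU on 5, 19 and 18. Its mixed share was 71.4%, 62.1% and 64.9%. Fragment 414668, with 11 CpGs, had MMMM on 15 of 40, 53 of 100 and 50 of 106 molecules over CpGs 2 to 5 and MUMM on 13, 21 and 19. Fragment 1111817, with 10 CpGs, had 22 of 22, 33 of 35 and 19 of 20 mixed molecules, the highest mixed share in its lowest library among members with 20 or more molecules in each.

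Members differed among themselves in their CpG profile. The range between a member's lowest and highest CpG level in the population was under 40 points at 1353 members, 40 to under 70 at 2494 and 70 or more at 1296, and 21 had too few calls. Mixed shares followed this order in the population, with medians of 53.8%, 73.3% and 88.9%, and in clone 1 with 63.9%, 78.9% and 88.9%. The range and the population's mixed share come from the same molecules. Among members with a range under 40 points, pairs of mixed molecules matched in 12.6% of cases in the population and in 41.6% and 41.9% in clones 1 and 2. Among those with a range of 70 or more the values were 25.9%, 44.4% and 44.2%. Matching within the clones thus had nearly the same level whatever the profile in the population.

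The number of CpGs per fragment went with level. The 4003 members with 5 to 9 CpGs had mean levels of 55.9%, 61.6% and 63.3%, and the 1159 with 10 to 19 CpGs had 45.2%, 52.8% and 52.5%. Their median mixed shares were 72.7%, 77.3% and 76.9% for the smaller group of CpGs and 80%, 83.3% and 84.6% for the larger one. Between the clones, level calls were made at 16.1% and 14.0% of the 2 groups, against 3.06% and 1.34% of all tested fragments with the same numbers of CpGs. At the ends of a fragment, where the fill-in reaction can set the call, the first CpG had mean levels of 55.0%, 60.04% and 61.5% in the same order of libraries and the last CpG 55.6%, 61.4% and 62.1%, against 51.4%, 57.9% and 58.9% over all CpGs of the members. The clones stood above the population at the ends and over all CpGs.

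The departure of a clone from the population was summed over members as a variance ratio. It used the mean molecule level, the mean over molecules of the share of methylated calls on each. The squared deviation of this level was corrected for counting error in the clone and in the population. It was then divided by the summed p(1-p), where p is the population's mean molecule level. The ratio is 0 when clone and population match and 1 for one in which every fragment is at 0 or 100% in proportion to p. It was 0.129 in clone 1 and 0.136 in clone 2. The same calculation between alternate even lines of the population gave -0.00685, and between the strands of 1 library it gave 0.0325 in the population, against 0.0431 in clone 1 and 0.0402 in clone 2. Intermediate fragments with over 20 to 60% mixed molecules had ratios of 0.171 and 0.182, and all tested fragments 0.0905 and 0.0957. No spread between replicates stands behind any of these ratios.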

How the data were processed

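Bisulfite-converted MspI fragments tagged with 6-base molecular tags were sequenced from the CD8+ T-cell libraries, and the submitters' processing notes name Bismark and mm9. Versions and filters are not given there. The deposited files have no header; their lines hold a fragment number, a strand mark, a tag, a string of methylated, unmethylated or missing calls as the authors deposited it, the deposited read count of the tag and a whole-number score of unstated meaning. No count was normalized, and no other reference was used.

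Each line was taken as 1 molecule. With Python 3.11.15, numpy 2.4.6, pandas 2.3.3, scipy 1.17.1, numba 0.67.0 and matplotlib 3.10.9, fragments of 4 to 19 CpGs and molecules with 4 or more calls were kept. Clone replicates share 1 file, so each clone was 1 library. Fragments were compared by two-sided Fisher's exact tests with Benjamini-Hochberg adjustment, and intervals are 95% Wilson intervals; both cover counting error only. Tested on simulated counts of the 63936 fragments, the level test recovered 83% of fragments with a difference of 90 points and 10% of those with 50 points in clone 1 against the population, 85% and 10% in clone 2 against the population, and 99% and 29% between the clones.

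Fragments named in the text are the 5 deepest members, the widest called differences in level and mixed share per comparison and direction (up to 3 each), the 3 with the highest and the 3 with the lowest mixed share in their lowest library, and 3 on each side of the 60% limit; not all are printed. The members, groups and rules were chosen with earlier results of these data known. Alternatives to the depth, strand, read, call and limit settings were run.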

Additional observations from a re-analysis of the deposited data

Results flagged for a closer look

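The effects of the 2 clones against the same population library differed at 808 members (15.6%, against 2.46% of all tested fragments) for the share of mostly methylated molecules and at 955 members (18.5%, against 10.6%) for the share of mixed molecules, by Fisher's exact test of clone 1 against clone 2 with Benjamini-Hochberg adjustment over all tested fragments.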

How the results depend on the processing

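Counts of calls moved with most settings. With a call required at every CpG, only 5 members of 30 tested fragments were left, with 0 calls in all 6 comparisons and variance ratios of 0.0151 and 0.0561. The counts below are in the order level (clone 1 against population, clone 2 against population, clone 1 against clone 2), then mixed share in the same order, with 156, 109, 808, 112, 93 and 955 as reported. With 2 or more reads per molecule (606 members) they were 1, 1, 25, 0, 0 and 44, and the ratio in clone 1 was 0.113. The plus strand alone (1414 members) gave 9, 1, 105, 5, 3 and 167, and the minus strand alone (1480 members) 3, 7, 117, 8, 4 and 196. Molecules with 1 read (1992 members), added after the data were seen, gave 9, 2, 179, 6, 1 and 247. Level calls between the clones were 4.13% of members with 2 or more reads (0.661% of all tested fragments). They were 7.43% on the plus strand (1.19%), 7.91% on the minus strand (1.21%) and 8.99% with 1 read (1.36%). Mixed calls between the clones were 7.26% of members with 2 or more reads (4.54%) and 11.8% on the plus strand (6.66%). On the minus strand they were 13.2% (7.0001%), and with 1 read 12.4% (6.38%). Against the population, no member was called for mixed share with 2 or more reads (0.0636% in clone 1 and 0.203% in clone 2). In the other 3 settings these shares were above the background, on few calls. With 20 or more molecules in each clone and 10 or more on the odd and on the even population lines, the clones differed at 359 of 1557 members in level (23.1%, against 3.27% of all tested fragments) and 414 in mixed share (26.6%, against 15.4%). With over 70% mixed (3940 members), mixed calls against the population were 72 (1.83%, against 1.29% of all tested fragments) and 54 (1.37%, against 1.10%). At a level of 30 to 70% (3005 members) they were 53 (1.76%, against 1.29%) and 50 (1.66%, against 1.10%). Between the clones they were 520 (17.3%, against 10.6%), and the ratio in clone 1 was 0.141. The first 4 calls of each molecule (4085 members) gave 92 (2.25%, against 0.353%) and 71 (1.74%, against 0.275%) level calls against the population. The single CpG with most calls (5047 members) gave 248 (4.91%, against 0.922%) and 172 (3.41%, against 0.632%). A setting without calls at the first and last CpG (3193 members) was added after the data were seen. Its level calls were 71 for clone 2 against the population (2.22%, against 0.298%) and 515 between the clones (16.1%, against 2.42%). The ratio in clone 1 was 0.142. The cause was not tested.

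Each called comparison of a named fragment was labelled once in every alternative setting where it could be tested, so 1 comparison counts several times. Of these results, 5 reversed direction, 633 kept direction and call and 91 lost the call. With odd and even lines exchanged, the mixed share of clone 1 against the population was -3.45 points at fragment 1373166 and -4.17 at fragment 500840. With the first 4 calls, that of clone 2 was -10.5 at fragment 1562404. At the single CpG with most calls, the level of clone 1 was -2.12 against the population at fragment 390961 and -2.18 against clone 2 at fragment 757547. The cause was not tested. Outside the setting that left 5 members, pairs of mixed molecules matched in 18.1 to 22.5% of cases in the population, 42.9 to 46.5% in clone 1, 41.8 to 44.5% in clone 2 and 18.1 to 23.1% between the clones.

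No paired analysis was possible because the 2 replicates of each clone share 1 file and the population has 1 replicate; leaving out a replicate was not run for the same reason.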

Other observations

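Fragment numbers may follow the order along the genome, which the files do not state, so neighbours by number are given as values only. Of 618 members with 10 or more calls in the population on the fragments numbered just before and just after, 518 (83.8%) had 1 or both of these at a level of 20 to 80%, against 23.7% of 6784 tested fragments. Both neighbours were under 20% at 35 members (5.66%, against 48.8% of tested fragments) and both over 80% at 32 (5.18%, against 26.7%). A neighbour under 20% with 1 over 80% was found at 33 (5.34%, against 0.840%). Another member stood at the next or previous number for 492 members (9.53%). For the smaller group of intermediate fragments with over 20 to 60% mixed molecules, 119 of 1892 (6.29%) had another of that group there. In that group 1 or both neighbours were at 20 to 80% at 189 of 238 fragments (79.4%), a share similar to that of the members.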
